A study of Mus musculus with 7 samples.

Results

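The Kruppel-like factors (KLFs) described here are 10 transcription factors, Klf2, Klf3, Klf4, Klf6, Klf7, Klf9, Klf10, Klf11, Klf12 and Klf13, taken by symbol from a table of 24015 genes. The family member Klf1, a factor of red cell precursors, is not among them. They were followed in bulk RNA sequencing of haematopoietic stem cells (HSCs), sorted from mouse bone marrow as lineage-negative Sca-1+ c-Kit+ CD150+ CD48- cells. There were 3 libraries of old and 4 of young HSCs, all from the C57BL/6 strain and without any labelled treatment. The comparison of old with young asks which transcripts differ with age. Ages are not stated in the labels, and it is not said that each library stems from a separate mouse, so the p-values cover only the variation among these samples, which may be technical in part. All 10 members passed the filter on low counts.

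KLFs bind GC-rich and CACCC-containing DNA through zinc fingers near the C-terminus and differ in their N-terminal parts. Klf2, Klf4, Klf6 and Klf7 are known mainly as activators, although Klf4 also represses. Klf3 and Klf12 repress through the corepressor CtBP, and Klf9, Klf10, Klf11 and Klf13 recruit the corepressor Sin3a. In blood and vessels Klf2 is known for keeping T cells quiescent and for the response of endothelium to flow, and Klf4 for monocyte differentiation. Klf2, Klf4, Klf6 and Klf10 are also counted among immediate early genes, which cells transcribe soon after a stimulus.

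The stretches upstream of Klf2 and Klf6 are shown because these are the only members whose level was higher in every old library than in every young one. They come from the RefSeq promoter table (GRCm38.p6, plus strand, chr8:72318812-72319032 for Klf2 and chr13:5861239-5861481 for Klf6), which held 9 of the 10 members and no entry for Klf10. Each stops at the base before the earliest start annotated by RefSeq or GENCODE. Capitals mark the GC box CCGCCC, read here on the other strand as GGGCGG, and, in Klf2, a match to the consensus of the factor MEF2.
Klf2: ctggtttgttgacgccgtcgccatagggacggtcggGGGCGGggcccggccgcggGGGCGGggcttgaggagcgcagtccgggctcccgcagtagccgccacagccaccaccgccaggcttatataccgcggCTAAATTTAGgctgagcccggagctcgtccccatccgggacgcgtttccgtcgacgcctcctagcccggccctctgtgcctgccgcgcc
Klf6: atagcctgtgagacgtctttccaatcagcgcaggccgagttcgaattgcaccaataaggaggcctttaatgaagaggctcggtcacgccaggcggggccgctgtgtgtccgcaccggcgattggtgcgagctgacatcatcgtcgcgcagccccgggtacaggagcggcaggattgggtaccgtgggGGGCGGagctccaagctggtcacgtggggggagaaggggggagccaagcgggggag
The match to the MEF2 consensus begins 118 bases before the RefSeq start of Klf2, and MEF2 factors are known inducers of this gene. Over the full promoter windows of 300 bases, searched on both strands, Klf2 was the only one of the 9 members with such a match, against 3.26% of 27025 promoters. The GC box CCGCCC was in 7 of the 9 (35.9% of all promoters) and CACCC in 6 of the 9 (56.7%), and the 2 motifs can overlap. Another 2 motifs, the CArG box of the serum response factor and TGACG, were found in 0 and 6 of the 9 (1.57% and 21.02% of all promoters). A match describes the letters of the window and does not show that a factor binds there.

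The libraries held 22203806 to 32401925 counts, and 11506 genes had enough counts to be tested. Levels are CPM, that is, counts scaled to a common library size, and 3 counts in a library, the limit that a count of 0 allows, were worth 0.0929 to 0.137 CPM. The cDNA was amplified without stated molecular identifiers, so that limit covers counting error only. Tests were edgeR's quasi-likelihood test with Benjamini-Hochberg adjustment over all tested genes, and an adjusted p under 0.05 was the threshold. Over all tested genes 29 (0.252%) passed and the median log2 fold change was -0.03. Markers of the sorted cells were present, with Kit at 136 to 546 CPM and Slamf1, which encodes CD150, at 60.6 to 278 CPM. Cd48 was at 0 in all old libraries and at 1.87 to 24.5 CPM in the young.

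None of the 10 KLFs passed the threshold. Klf2 and Klf6 had higher levels in all 3 old libraries than in all 4 young libraries, with means 6.46-fold and 3.09-fold higher. Klf13 and Klf11 had lower means in old HSCs, with log2 fold changes of -1.34 and -1.24 that were -0.61 without young 1 and -0.66 without old 1. Klf10 differed little, and Klf3, Klf4, Klf7, Klf9 and Klf12 had standard errors above the size of their fold change or, for Klf12, close to it. Of the 10 members, 5 had a positive and 5 a negative log2 fold change, with a median of -0.04, beside 48.5% positive over all tested genes. At an unadjusted p under 0.05 there were 3 members, Klf6, Klf2 and Klf13, against 9.12% of all tested genes.

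**Figure D1:**
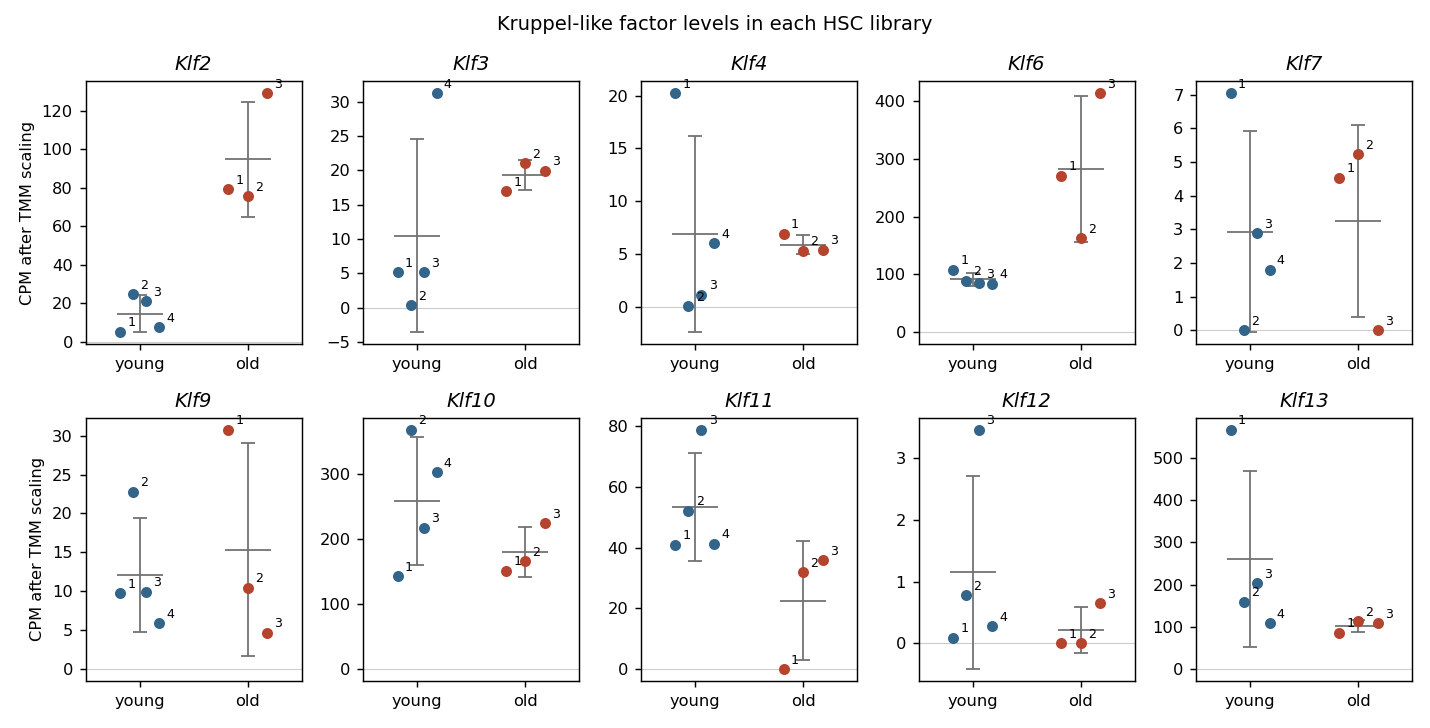
Level of each Kruppel-like factor in CPM after scaling, in the 4 young and 3 old libraries (points, with the replicate number), with the mean and SD of each group (bars); each panel has its own linear axis. Old points lie above all young points for Klf2 and Klf6 and below them for Klf11, and single libraries stand far from their group in Klf13 (young 1), Klf3 (young 4) and Klf11 (old 1).

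Klf2 was read at 79.2, 75.7 and 129 CPM in old 1, 2 and 3, from 2097, 2445 and 3362 counts. In young 1 to 4 it was at 5.30, 24.8, 21.02 and 7.49 CPM, from 121, 544, 582 and 215 counts. The lowest old library thus lay above the highest young library, and young 1 and young 4 were below young 2 and young 3. Old libraries averaged 94.7 ± 29.9 CPM (SD, n = 3) and young libraries 14.7 ± 9.72 CPM (SD, n = 4). On the log2 scale Klf2 was higher by 2.69 ± 0.63 (SE), and the adjusted p was 0.159 by edgeR.

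Klf6, a widely expressed factor that is closely related to Klf7, was at 271, 163 and 414 CPM in old 1, 2 and 3. The young libraries were at 108, 89.0, 84.5 and 84.3 CPM, within a narrow range. The old libraries were all higher and spread more, with a coefficient of variation of 44.6% against 12.5% in young. The means were 283 ± 125.9 CPM (SD, n = 3) for old and 91.6 ± 11.4 CPM (SD, n = 4) for young libraries. The log2 fold change was 1.63 ± 0.31, and its adjusted p of 0.106 (edgeR) was the smallest of the 10. Groups ordered this way, with every old library above every young one, were seen in 2 of 10 members and in 7.55% of all tested genes.

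The calls for Klf2 and Klf6 depended on the test. DESeq2 called both higher in old HSCs (adjusted p of 0.00298 for Klf2 and 7.17e-04 for Klf6), among 3.81% of the genes to which it gave an adjusted p. In a fit added after seeing the data, edgeR was run on only the 4510 genes that averaged 50 CPM or more. There Klf6 was called (adjusted p = 0.0263), among 2.88% of those genes. Klf2, with a mean of 49.0 CPM over the 7 libraries, lay just under that limit. Limma-voom called neither. Over all alternatives the adjusted p ran from 0.00298 to 0.695 for Klf2 and from 7.17e-04 to 0.660 for Klf6. Both kept a positive fold change in the 7 edgeR fits that each left out 1 library, from 2.40 (without old 3) to 3.07 (without young 2) for Klf2 and from 1.24 (without old 3) to 1.89 (without old 2) for Klf6 on the log2 scale. Neither passed in any of these 7 fits.

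Klf4, known as a reprogramming factor, was low and erratic in young HSCs. Its level was 6.91, 5.29 and 5.38 CPM in the old libraries and 20.2, 0.0457, 1.12 and 6.02 CPM in the young ones. The value in young 2 rested on 1 count, and the old libraries lay inside the young range. The log2 fold change of -0.23 ± 1.70 turned positive, to 1.29, without young 1 (adjusted p of 0.992 and 0.966, edgeR).

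Klf7, which is best known from neurons, was low, at 4.53, 5.23 and 0 CPM in old and 7.05, 0, 2.89 and 1.81 CPM in young HSCs. Each group had 1 library with no count, and the ranges overlapped. Its log2 fold change was 0.15 ± 2.22 (adjusted p = 0.995, edgeR), and it was negative in 4 of the 7 fits that left out 1 library.

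Of the CtBP-binding repressors, Klf3 was even among old HSCs and uneven among young. It stood at 17.0, 21.1 and 19.98 CPM in the old libraries. In the young libraries it was at 5.13, 0.320, 5.13 and 31.3 CPM, so that young 4 alone was above the old libraries and the other young libraries were below them. The coefficient of variation was 11.04% in old and 134% in young HSCs. The log2 fold change was 0.88 ± 1.29 with all libraries (adjusted p = 0.963) and 2.45 without young 4 (adjusted p = 0.788, edgeR).

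Klf12 was barely detected. Old 1 and old 2 had no count and old 3 had 17, or 0.653 CPM. The young libraries held 0.0876 to 3.47 CPM, and young 1, with 2 counts, was under the level of 3 counts. The fitted log2 fold change of -2.38 ± 2.34 (adjusted p = 0.914, edgeR) rests on few counts, and without old 3 no old library has a count.

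Among the Sin3a-recruiting factors, Klf13, which in T cells activates the chemokine gene Ccl5, had the smallest p. Old 1, 2 and 3 were at 85.9, 113 and 108 CPM. Young 1 was at 567 CPM, young 2 at 159, young 3 at 203 and young 4 at 108.5 CPM. Young 4 lay within the old range, so the groups overlapped, and young 1 was far above every other library. Old libraries averaged 103 ± 14.6 CPM (SD, n = 3) against 259 ± 209 CPM (SD, n = 4) for the young. Klf13 thus had a log2 fold change of -1.34 ± 0.53 (adjusted p = 0.440, edgeR). Without young 1 it was -0.61 (adjusted p = 0.682).

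Klf10, first described as a gene induced early by TGF-beta, was at 151, 165 and 224 CPM in old and 143, 368, 217 and 302 CPM in young HSCs. Young 1 lay below all old libraries and young 2 and young 4 above them. The means of 179.98 ± 38.6 CPM (SD, n = 3) and 257 ± 98.3 CPM (SD, n = 4) gave a log2 fold change of -0.52 ± 0.33 (adjusted p = 0.778, edgeR).

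Klf11, the closest relative of Klf10 and likewise induced by TGF-beta, was at 0.0755 CPM in old 1, from 2 counts, and at 31.9 and 35.8 CPM in old 2 and old 3. The young libraries held 41.001, 52.1, 78.9 and 41.3 CPM. Every old library was below every young library, which was true of 1 member and of 5.18% of all tested genes. The log2 fold change was -1.24 ± 1.23 (adjusted p = 0.915) and -0.66 ± 0.54 without old 1 (edgeR).

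Klf9, which glucocorticoid and thyroid hormone induce in other tissues, was at 30.8, 10.5 and 4.69 CPM in old and 9.77, 22.8, 9.93 and 5.92 CPM in young HSCs. Old 1 was the highest and old 3 the lowest of all 7 libraries. Its log2 fold change of 0.34 ± 1.04 (adjusted p = 0.985, edgeR) was -0.68 without old 1.

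**Figure D2:**
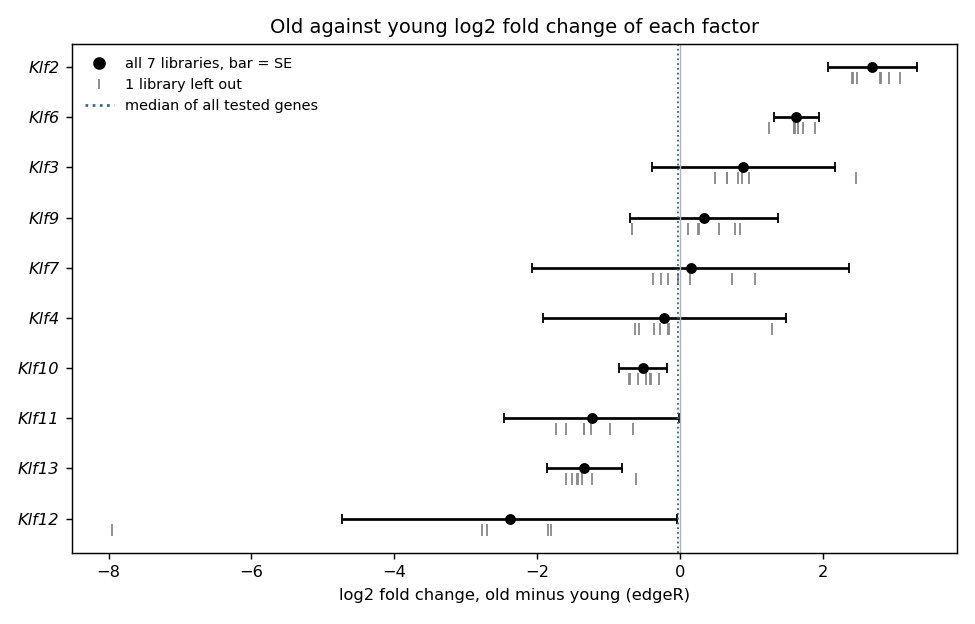
Log2 fold change of each Kruppel-like factor, old minus young, by edgeR with all 7 libraries (points, bars are the SE) and with 1 library left out (ticks; Klf12 was not tested in every such fit). The dotted line is the median of all tested genes, -0.03. Klf2 (2.69) and Klf6 (1.63) lie right of 0 with every tick; the tick at the far left is Klf12 without old 3, where both old libraries are at 0.

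To compare the members with each other, levels were divided by the length of all annotated exons of the gene (GENCODE M21, GRCm38), giving CPM per kb. The exon set behind the deposited counts is not given in the sources used here, so the order of levels depends on that annotation. In old HSCs the order was Klf6 (64.4 ± 28.7 CPM per kb), Klf2 (51.3 ± 16.2), Klf10 (43.1 ± 9.23), Klf13 (13.6 ± 1.94) and Klf11 (5.21 ± 4.52). The first 3 overlapped between libraries, while Klf13 lay below all 3 and above Klf11 in every old library. In young HSCs it was Klf10 (61.6 ± 23.5 CPM per kb), Klf13 (34.4 ± 27.7), Klf6 (20.9 ± 2.60), Klf11 (12.3 ± 4.10) and Klf2 (7.94 ± 5.26). Only Klf6 and Klf11 did not overlap among neighbours in this order. The other members averaged 0.0312 to 3.18 CPM per kb in old and 0.165 to 2.51 CPM per kb in young HSCs.

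The summed level of the 10 factors overlapped between the groups, at 163, 147 and 245 CPM per kb in old 1 to 3 and 156, 159.7, 131 and 126 CPM per kb in young 1 to 4. Its make-up differed. Klf2 and Klf6 together held 64.2%, 53.3% and 67.03% of the sum in the old libraries and 17.6%, 21.1%, 23.3% and 18.5% in the young ones. Shares of a sum are tied, so a larger share of Klf2 and Klf6 leaves a smaller one for the others. Klf10 and Klf13 held 27.7% to 37.3% in old and 60.01% to 69.9% in young libraries, while the level of each overlapped between the groups. The split between those last 2 varied in young HSCs, where Klf13 made up 48.1% of the sum in young 1 and 11.5% to 20.5% in the other 3. The ratio of Klf2 to Klf13 within a library, which does not depend on the scaling between libraries, was 2.72 to 4.87 in old and 0.0381 to 0.636 in young HSCs. These shares restate the levels given above and were not tested.

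**Figure D3:**
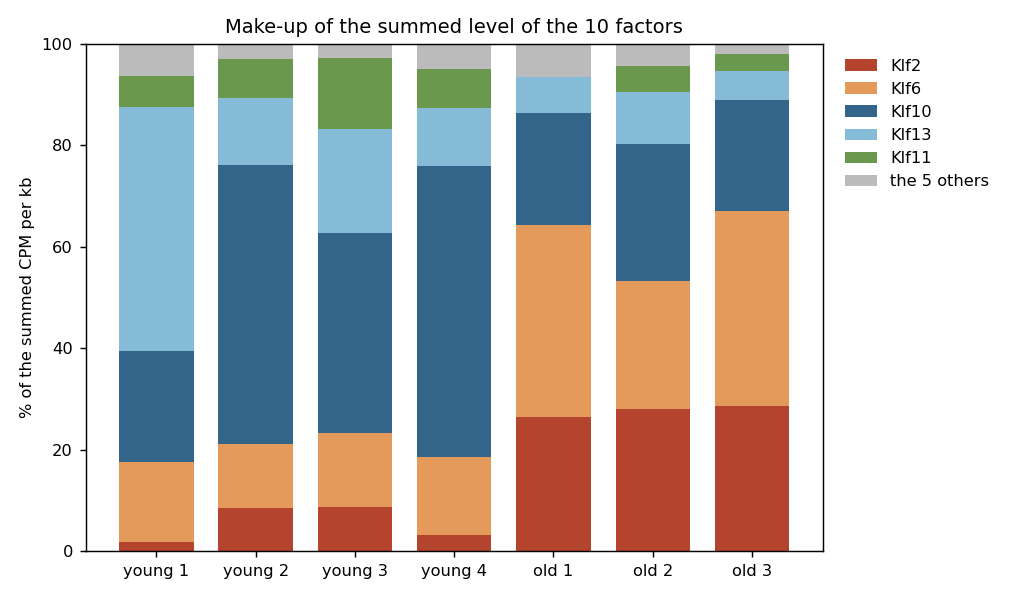
Share of each factor in the summed CPM per kb of the 10 Kruppel-like factors (stacked bars, %) in each young and old library. Klf2 and Klf6 together reach 53.3% to 67.03% in the old libraries and 17.6% to 23.3% in the young, and Klf13 takes 48.1% in young 1.

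Over the 7 libraries, the smallest distance between members, out of 45 pairs, was that of Klf9 and Klf10. It was a root mean square difference of 1.06 in log2 CPM centred on each gene's mean. Klf2 and Klf6 followed, also at 1.06. A small distance does not mean that 2 genes rise and fall together. Klf9 was at 30.8 CPM in old 1 and 4.69 CPM in old 3, where Klf10 was at 151 and 224 CPM. Smaller distances were found outside the family, where far more genes were compared and genes without a count in some library were left out. The distances inside and outside the family therefore cannot be ranked against each other. Nearest to Klf6 among 7665 tested genes that averaged 10 CPM or more and had a count in every library were Fdft1, a squalene synthase of cholesterol synthesis (0.24), Cebpb, a transcription factor of myeloid and stress responses (0.26), and Polk, a translesion DNA polymerase (0.29). Cebpb was at 161 to 289 CPM in old and 71.8 to 99.5 CPM in the young (log2 fold change 1.42, adjusted p = 0.102, edgeR). It was picked for its likeness to Klf6 over these same libraries, so a similar difference follows from the choice. Nearest to Klf10, the member with the highest mean CPM, were Mfsd3 (0.10), the histone acetyltransferase gene Hat1 (0.10) and Serpina3g (0.15). Such distances over 7 libraries are a description.

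Of the other immediate early genes, Fos and Zfp36 were higher in old HSCs past the threshold. A list of 15 without KLFs, chosen with earlier results of these data known, held 12 tested genes. Of these 2 passed, 12 had positive log2 fold changes (median 1.12) and 7 were higher in every old than in every young library. The shares over all tested genes were 0.252% passing, 48.5% positive and 7.55% higher in every old library. Fos, a subunit of the factor AP-1, was 4.16-fold higher (adjusted p = 0.0483), and Zfp36, which promotes decay of cytokine messages, 3.05-fold (adjusted p = 0.0457, edgeR). Ier3 was 4.31-fold higher without passing (adjusted p = 0.0760). Against the log2 fold changes of these 12 genes, that of Klf6 was within the range, that of Klf2 above it and those of Klf4 and Klf10 below it. For Klf4 the SE of 1.70 was larger than the fold change, and the sign turned without young 1. The summed level of the list was 6361 to 9243 CPM in old and 2802 to 4760 CPM in young libraries, and the part of a shared response to stimulus or handling in the levels of Klf2 and Klf6 was not tested.

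**Figure D4:**
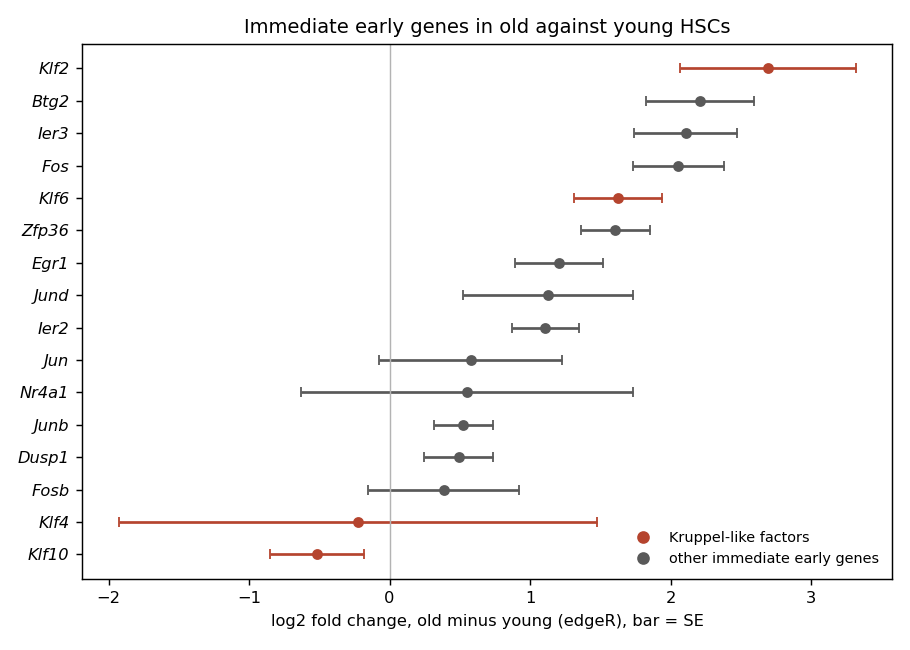
Log2 fold change, old minus young, of 12 tested immediate early genes (grey) and of the 4 Kruppel-like factors counted among them (red), by edgeR; bars are the SE. All grey points are above 0, as are Klf2 (2.69) and Klf6 (1.63). Klf10 (-0.52) and Klf4 (-0.23) are below 0, and the bar of Klf4 (SE 1.70) reaches across 0.

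No gene on the lists of known upstream regulators passed. Of the 7 tested genes of the MEK5-ERK5-MEF2 cascade, the kinase pathway that induces Klf2 and Klf4, 3 had a positive and 4 a negative log2 fold change (median -0.03). Mef2c, one of its transcription factors, was at 295.6, 250.1 and 309 CPM in old and 85.9, 221, 225 and 189 CPM in the young, with no overlap (log2 fold change 0.66 ± 0.32, adjusted p = 0.614). It was the only 1 of the 7 with every old library above every young one, as were 7.55% of all tested genes. The kinase gene Mapk7, which encodes ERK5, was at 0 to 0.929 CPM in old and 0 to 14.6 CPM in young HSCs (adjusted p = 0.676). Mef2a gave a log2 fold change of -0.40 (adjusted p = 0.982). All these values are from edgeR.

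Of 6 tested genes of the glucocorticoid receptor list, which bears on Klf9, 5 were positive and none passed (median 0.86). Tsc22d3, the glucocorticoid-induced leucine zipper, was at 1002, 1227 and 1653 CPM in old and 438 to 627 CPM among young libraries (log2 difference 1.25 ± 0.23, adjusted p = 0.0954, edgeR). The kinase gene Sgk1 gave 1.53 (adjusted p = 0.634) and the clock gene Per1 -2.24 (adjusted p = 0.887). Among 8 genes of TGF-beta receptors and SMADs, the route to Klf10 and Klf11, none passed (3 positive, 5 negative, median -0.14). Tgfb1, the ligand, was at 44.0, 88.2 and 105 CPM in old and 136 to 182 CPM in young HSCs, lower in every old library (log2 fold change -1.03 ± 0.33, adjusted p = 0.304). Smad2 and Smad3, which carry its signal, gave 0.49 (adjusted p = 0.791) and 0.33 (adjusted p = 0.972).

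Cofactors were divided in direction, and none passed. Of 13 tested corepressor and coactivator genes, 8 were negative and 5 positive (median -0.47). Over all tested genes 48.5% were positive and the median was -0.03. In sum the 13 genes were at 1334 to 1467 CPM in old and 1681 to 2120 CPM in young libraries, which was not tested. Hdac1, a deacetylase of the Sin3 complex, was at 129, 149 and 185 CPM in old and 208 to 352 CPM in the young (log2 fold change -0.72 ± 0.26, adjusted p = 0.381, edgeR). Ctbp1, the corepressor of Klf3 and Klf12, gave -1.03 (adjusted p = 0.468) and Hdac3 -0.47 (adjusted p = 0.773). Of 5 genes of KLF protein turnover none passed (median -0.07). The ubiquitin ligase gene Fbxo32 was the only 1 of the 5 higher in every old library, beside 7.55% of all tested genes (log2 fold change 1.59, adjusted p = 0.634, edgeR). Smurf1 gave -3.95 (adjusted p = 0.791) and Wwp1, whose product degrades Klf2, -0.21 (adjusted p = 0.986, edgeR).

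Reported targets of KLFs were split, with 4 positive and 6 negative log2 fold changes among 10 tested (median -0.27), and none passed. Cdkn1a, the cell cycle inhibitor p21 and a target of Klf4 and Klf6, was at 14.01, 13.6 and 9.26 CPM in old and 0, 0, 4.77 and 4.21 CPM in the young, with no overlap (log2 fold change 2.45 ± 2.06, adjusted p = 0.884, edgeR). Of the 10, 1 was higher and 1 lower in every old library, beside 7.55% and 5.18% of all tested genes. Lgals3, repressed by Klf3, gave -1.86 (adjusted p = 0.898). S1pr1, a Klf2 target in T cells, was at 27.04 to 37.9 CPM in old and at 3.99, 0, 28.0 and 26.05 CPM in young 1 to 4 (adjusted p = 0.939); it was chosen after its values were seen.

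The rest of the KLF and SP family was mostly silent or uneven. Of 16 genes, 7 were tested, 2 with a positive and 5 with a negative fold change, and none passed (median -0.74). The summed level of the 16 was 122 to 123 CPM in old and 172 to 208 CPM in young libraries, and was not tested. Klf14, Sp5, Sp7, Sp8 and Sp9 had no count in any library. Klf16 and Sp1, 2 of the 7, were lower in every old than in every young library, which was true of 5.18% of all tested genes. Klf16 rested on 2, 15 and 6 counts in old 1, 2 and 3. Sp1, a general activator at GC boxes, was at 2.68, 14.3 and 22.6 CPM in old and 29.1 to 62.9 CPM among young libraries (log2 difference -1.74 ± 0.81, adjusted p = 0.575), and Klf16 was at 0.0755 to 0.464 and 1.14 to 7.94 CPM (adjusted p = 0.561). Sp3 gave -0.74 (adjusted p = 0.748, edgeR).

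Other cell types could contribute KLF transcripts to bulk samples, where fewer cells of a type and less RNA per cell cannot be told apart. Of 8 T and NK cell markers, Cd3e, Cd8a, Klrd1 and Gzmb were at 0 in every library, and the summed list was at 21.3 to 105 CPM in old and 79.5 to 382 CPM in young HSCs, mostly from Nkg7. Of 8 B cell markers, Ms4a1, Vpreb3, Ebf1 and Pax5 were at 0, and the sums overlapped (73.4 to 192 and 122 to 185 CPM). Endothelial markers, 6 in number, summed to 128 to 223 CPM in old and 71.1 to 135 CPM in young libraries, with 4 positive and 1 negative log2 fold change among 5 tested (median 0.44) and none past the threshold. Emcn, 1 of the 5, was higher in every old library (76.6 to 113 against 51.0 to 70.4 CPM, adjusted p = 0.524, edgeR). That order was seen in 7.55% of all tested genes. Cldn5 was at 34.3, 11.3 and 64.04 CPM in old and at 12.9, 6.62, 0 and 0 CPM in young libraries (log2 fold change 2.90, adjusted p = 0.799, edgeR). Pecam1 and Kdr overlapped between the groups, and Cdh5 was at 0 in all old libraries and at 4.07 CPM in young 1. Ctsg and Ltf of 10 myeloid markers were at 0, while the sums were 1424 to 2207 CPM in old and 862 to 1442 CPM in young libraries. Of its 4 tested genes 2 were positive and 2 negative (median 0.03). The granule protease gene Prtn3 passed, higher in old HSCs (log2 fold change 2.10, adjusted p = 0.0242, edgeR), while S100a8 gave -2.44 (adjusted p = 0.898) and Mpo, not tested, was at 0 in all old libraries and at 24.6 and 7.90 CPM in young 1 and young 2. The haemoglobin genes among 8 erythroid markers were at 0 (Hba-a1, Hba-a2, Hbb-b1 and Hbb-b2), with sums of 11.1 to 49.4 and 71.6 to 109.9 CPM. Of 7 megakaryocyte markers Gp6 was at 0, and the sums were 136 to 351 and 296 to 551 CPM. Of 6 stromal markers Lepr was at 0 and none was tested, with sums up to 8.69 CPM. Multipotent progenitor markers, 3 in number, summed to 85.2 to 135 CPM in old and 261 to 406 CPM in young libraries. All 3 had negative log2 fold changes and none passed, with Flt3 at 0 in every old library and in young 1. The 10 HSC markers summed to 1942 to 2349 and 763 to 1402 CPM. Of these, 7 were positive and 3 negative, and 5 were higher in every old library (7.55% of all tested genes). Only Procr passed (0.252% of all tested genes), 6.68-fold higher in old HSCs (adjusted p = 0.00643, edgeR). The part of these differences in the KLF levels was not tested.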

How the data were processed

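RNA of sorted HSCs was sequenced in 7 libraries (3 old, 4 young). Per the labels' protocols, cDNA was made with Smart-seq+ and libraries with Nextera XT, which does not mark strand. The submitters' processing notes name Trimmomatic, FastQC, STAR, featureCounts and the build mm9. Versions, annotation and strandedness were not given in the sources used here. Raw read counts per gene symbol were deposited by the authors, with no sign of scaling or pooling in the values. Of 24015 symbols, 22709 matched GENCODE M21 names. Genes annotated across Klf3 and Klf7 exons on the other strand could share reads with them.

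The analysis used edgeR 4.0.16 under R 4.3.3 (filterByExpr, minimum count 10 and minimum total 15; TMM; glmQLFit and glmQLFTest, 2-sided, group as the only term), with limma 3.58.1 and DESeq2 1.42.0 as alternatives. Standard errors were obtained by dividing the size of each log2 fold change by the root of its F statistic. All members were described, and from each list of family, regulator, cofactor, target and immediate early genes the 3 tested genes with the smallest p, except 1 target gene that is not reported here. The members and lists were chosen with earlier results of these data known. The alternatives were DESeq2, limma-voom, 3 other scalings, 2 other filters, robust dispersions, an adjusted p under 0.1, blocking on replicate number, and dropping each library in turn. The restriction to genes of at least 50 CPM and the fit without young 1 and young 2 were added after seeing the data. On simulated counts for this comparison (11506 genes, 50 changed at each size) the test recovered 1 gene changed 2-fold, 15 changed 4-fold, 24 changed 8-fold and 24 changed 16-fold, with 2 false among 66 calls.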

Additional observations from a re-analysis of the deposited data

Results flagged for a closer look

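Klf3 in young 4 stood apart from its group, at 31.3 CPM, where young 1 to 3 held 0.320 to 5.13 CPM. The gap to the nearest of them was 0.845 of the whole range of the group, above Dixon's critical value for 4 samples. Chance gives about 1 such case in 20 groups, and the young groups of 10 genes were examined.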

How the results depend on the processing

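The number of KLFs past the threshold was 0 in edgeR with each scaling, filter and robust setting tried over all genes, in limma-voom, with the replicate block, at an adjusted p under 0.1 and without each library (0 to 0). It was 2 with DESeq2 and 1 among genes of at least 50 CPM. Over all genes the 29 calls became 431 with DESeq2, 50 with limma-voom, 16 with library size alone, 130 among genes of at least 50 CPM, 49 at an adjusted p under 0.1, 7 with young 1 and young 2 left out, and 2 to 18 without 1 library. With the replicate number as a block 0 genes passed. The labels state no pairing of same-numbered libraries. Deviations of these libraries from the group means had correlations of -0.07 to 0.03 across genes. Whether they shared a preparation is not known, and so few libraries cannot settle it. Klf2, Klf3, Klf6, Klf10, Klf11, Klf12 and Klf13 kept their direction in every alternative that tested them. The sign of Klf4 turned with limma-voom (1.69), the replicate block (2.30), young 1 and young 2 left out (0.71) and without young 1 (1.29). That of Klf7 turned with limma-voom (-0.31), the replicate block (-0.60) and without old 1 (-0.17), old 2 (-0.37), young 2 (-0.27) or young 4 (-0.03), and that of Klf9 with the replicate block (-0.24) and without old 1 (-0.68). Without 1 library the log2 fold changes ranged from -0.64 to 1.29 for Klf4, from -0.37 to 1.05 for Klf7 and from -0.68 to 0.84 for Klf9. The cause was not tested. At this number of libraries, most genes changed 4-fold in simulated counts were missed.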
